A study of Mus musculus with 8 samples.

Results

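Narrow peaks of H3K36me2, dimethylation of histone H3 at lysine 36, were examined where no H3K36me3 peak (the trimethylated form) was listed. Regions were chosen by position and length only: a listed H3K36me2 peak outside chromosome 15, shorter than 10000 bp, that shared no base with any listed H3K36me3 peak. The list of H3K36me3 peaks held 4999. Below, "without H3K36me3" means no overlap with this list, and weaker H3K36me3 outside it was not examined. Of 1691 listed H3K36me2 peaks, 458 (27.1%) met the rule. They covered 2.36 Mb, which is 5.38% of the listed H3K36me2 length, and held 5.50% of the listed WT signal.

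The chromatin was that of C3H10T1/2, mesenchymal progenitor cells derived from C3H mouse embryos, at passages 10 to 15. Both genotypes carried a stably expressed H3.3 with a FLAG-HA tag, unmutated in the WT cells and with methionine at lysine 36 in the K36M cells. Mononucleosomes were prepared with micrococcal nuclease, and Drosophila S2 chromatin, at 5% of the mouse amount, served as a spike-in for the precipitation. There was 1 H3K36me2 library per genotype, so no difference below has a replicate check and no p-value is given. The sources used here give neither the promoter of the transgene nor whether a line is 1 clone.

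H3K36me2 is written largely by the NSD methyltransferases, over genes and in the space between them, and often forms broad domains. H3K36me3 is written by SETD2 behind elongating RNA polymerase II and marks the bodies of transcribed genes. Methionine in place of lysine 36 cannot be methylated, and the mutant histone is known to inhibit H3K36 methyltransferases, so methylation of unmutated histones also falls. The K36M mutation of H3.3 is characteristic of chondroblastoma, a tumour of cartilage-forming cells. The comparison addresses how the mutant histone changes H3K36me2 in the narrow regions.

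All 458 narrow peaks carried less H3K36me2 in K36M than in WT on the spike-in scale, as did all 1691 listed H3K36me2 peaks, so this is not particular to them. Summed over them, WT chromatin gave 105142 spike-in normalized reads and K36M chromatin 25195, or 24.0% of the WT sum, a 4.17-fold difference. The interval of this ratio was 0.237 to 0.242 (Clopper-Pearson, 95%, counting error only). Single peaks ran from 73.4 to 524 normalized reads in WT, with a median of 221.4, and from 9.88 to 235 in K36M, with a median of 50.7. The ranges of both libraries overlap, but within each peak the K36M value was the lower one. The median log2 ratio of K36M to WT was −2.11, a 4.32-fold difference, with quartiles of −2.34 and −1.94.

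Of the 458 narrow peaks, 456 (99.6%) were at least 2-fold lower, beside 97.0% of all listed H3K36me2 peaks. The 4-fold threshold was passed by 312 (68.1%), beside 59.0% of all listed peaks. The 2 narrow peaks with a smaller difference, named here after their values were seen, lay at chr11:45888400-45890599 and at chr4:146971800-146979999. Values were 144 in WT and 85.8 in K36M for the first, 1.67-fold lower. For the second they were 359 and 195.0, 1.84-fold lower.

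The size of the difference depends on the spike-in factors. As reads, without the normalization and not corrected for sequencing depth, the 458 narrow peaks held 97354 in WT and 48452 in K36M. With both H3K36me2 libraries scaled to the same total over all listed peaks, the median log2 ratio of the narrow peaks was −0.11 and 2 of the 458 were at least 2-fold lower. This scaling removes any difference that all listed peaks share by its construction. It therefore compares the narrow peaks with the rest and cannot show how much of the loss comes from the spike-in factors.

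**Figure D1:**
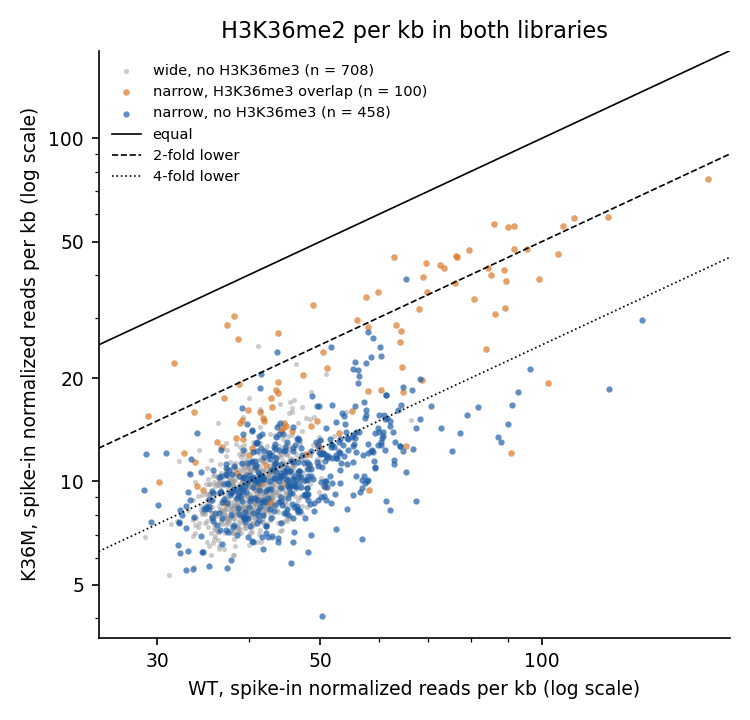
H3K36me2 per kb in the WT library (x axis) and the K36M library (y axis), in spike-in normalized reads per kb on log scales, with 1 point per peak outside chromosome 15 and lines for equal, 2-fold lower and 4-fold lower values. The 458 narrow peaks without H3K36me3 (blue) lie around the 4-fold line with the 708 wide ones (grey), while many of the 100 narrow peaks that overlap H3K36me3 (orange) lie nearer to the 2-fold line.

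Narrow peaks differed little in the change from wide domains that also lacked a listed H3K36me3 peak. The 708 H3K36me2 peaks of 10000 bp or more, outside chromosome 15 and without H3K36me3, had a median log2 ratio of −2.11 and quartiles of −2.25 and −1.94. The medians of the narrow and the wide class differed by −0.0025 on the log2 scale. Of the wide peaks, 66.5% were at least 4-fold lower. With a pseudocount of 38.5 normalized reads added to both genotypes, the difference of the medians became 0.42. This pseudocount is close to the 50.7 normalized reads of the median narrow peak in K36M and small beside the 232 of the median wide peak, so it pulls the narrow ratios toward 0 by its construction.

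The narrow peaks varied more among themselves than the wide ones. The SD of the log2 ratio was 0.35 over the narrow and 0.25 over the wide peaks. Counting error alone would give 0.19 and 0.09, since the median narrow peak held 205 reads in WT and 97.5 in K36M, against 898.5 and 445.5 in the median wide peak. With the counting variance subtracted, SDs of 0.29 and 0.23 remained. The error between cultures and precipitations is part of both and was not measured.

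On chromosome 15, which the rule leaves out, 50 peaks met the other conditions. Their median log2 ratio was −2.15, with quartiles of −2.39 and −1.91, and all 50 were at least 2-fold lower.

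Narrow peaks that overlapped H3K36me3 had a smaller difference than those without. The 100 such peaks outside chromosome 15 had a median log2 ratio of −1.32, or 2.49-fold lower, with a range of −2.91 to −0.33. Of these 100, 87 lay above the upper quartile of the narrow peaks without H3K36me3, and 9 were at least 4-fold lower. The classes were closer in WT than in K36M: the median density with H3K36me3 was 50.6 normalized reads per kb in WT and 19.2 in K36M, and without it 45.2 and 10.4. The median density with H3K36me3 was thus 1.12 times that without it in WT and 1.85 times in K36M. A smaller loss in H3K36me2 peaks with H3K36me3 was already known for all lengths, so this repeats it for the narrow ones and is not independent support.

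**Figure D2:**
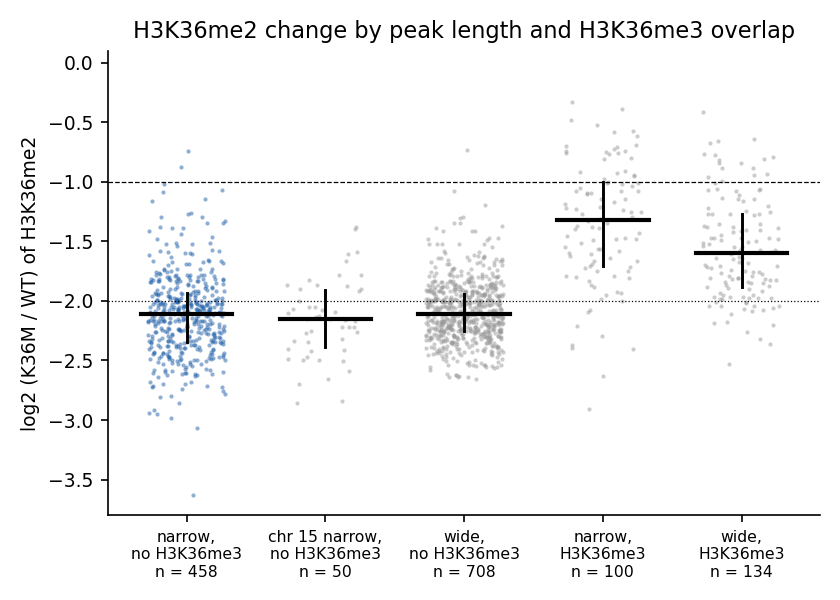
Log2 ratio of K36M to WT for H3K36me2 in 5 classes of peaks, with 1 point per peak, a horizontal bar at the median, a vertical bar between the quartiles, and dashed and dotted lines at 2-fold and 4-fold lower. The medians of the 3 classes without H3K36me3 lie between −2.15 and −2.11, and those of the classes with H3K36me3 at −1.32 (narrow) and −1.60 (wide).

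The limits of the rule cut through a continuum. The longest narrow peaks were 9800 bp long, and there were 6 of them. One at chr10:8611000-8620799 had values of 492 (WT) and 108 (K36M), and another at chr12:105195200-105204999 had 397 and 101. Just outside the limit, at 10000 bp, peaks at chr1:137143400-137153399 and chr1:185501800-185511799 had 383 and 88.9, and 421 and 84.8. The ratios inside the limit were 0.219 and 0.254, and those outside it 0.232 and 0.201. At the H3K36me3 limit, the narrow peak with the smallest gap lay at chr2:129012600-129020199, 0.600 kb from an H3K36me3 peak, with a ratio of 0.284. The smallest overlap was 400 bp, in a peak at chr18:75562600-75566399 with a ratio of 0.350.

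Among the 229 narrow peaks with the higher mean signal, those with the 6 lowest ratios differed by 6.15-fold to 7.23-fold. The first lay at chr14:123865600-123871399, where 305 normalized reads in WT stood against 42.1 in K36M. Its ratio was 0.138, with an interval from counting error of 0.107 to 0.178. A second peak of this set lay 61.8 kb from it, at chr14:123933200-123939799, with 284 and 45.8. Both were thus among the lowest, while their nearest wide peak was 4.52-fold lower. The peak at chr5:64958200-64963399 had 283 and 43.2, and that at chr5:17251400-17258199 had 257 and 40.0. A peak at chr4:64143200-64151399 had 360 and 56.2, and one at chr1:92426000-92431799 had 246 and 40.0. Their intervals overlap one another, so the order within this set is not resolved. The lowest ratio of all was in a peak of lower signal, named after its values were seen: at chr3:150822800-150825999, 161 normalized reads in WT stood against 13.0 in K36M, 25 reads, a ratio of 0.0808 (0.0507 to 0.124).

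The 6 highest ratios among these 229 peaks were 0.408 to 0.544, and they fell into different surroundings. The highest was the chromosome 4 peak from 146971800, whose nearest wide peak, 164.8 kb away, was itself 1.76-fold lower. The next was at chr12:89453800-89462399, with 499 and 235 normalized reads, a ratio of 0.471 (0.413 to 0.537). A wide peak 27.6 kb from it was 1.91-fold lower. A peak at chr4:61883400-61887999 had 278 and 113, and its nearest wide peak was 2.21-fold lower. In these 3 places the narrow peak and its wide neighbour both lost less than most peaks. The other 3 lay at least 518 kb from a wide peak, and those wide peaks were 4.55-fold to 4.82-fold lower. They were at chr3:152312200-152318199 (248 and 112), at chr2:154087600-154093799 (365 and 163) and at chr4:16340600-16346399 (227 and 94.6).

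The 4 highest WT values belonged to peaks of 8.60 to 9.40 kb. The peak at chr4:56437400-56446599 had values of 524 (WT) and 87.9 (K36M), 5.96-fold lower. One at chr8:11163200-11172599 had 518 and 127, and one at chr17:13697600-13706799 had 515 and 128, 4.09-fold and 4.03-fold lower. The fourth was the chromosome 12 peak from 89453800, 2.12-fold lower. Equally strong narrow peaks therefore differed by factors from 2.12 to 5.96.

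The shortest narrow peaks were the densest per kb in both libraries. In the 52 peaks of up to 2000 bp the median density was 61.4 normalized reads per kb (WT) and 13.9 (K36M), and in the 64 peaks above 8000 bp it was 41.5 and 9.98. Over the 458 peaks, length and WT density had a Spearman correlation of −0.59, and length and K36M density −0.35. Length is also the divisor of the density, so these are descriptions. Beyond 10000 bp the WT density was nearly level, at 40.0 for peaks of up to 20000 bp and 43.2 above 100000 bp. The narrow peaks' median WT density was 1.11 times that of the wide peaks without H3K36me3, and their K36M density 1.08 times.

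The 4 highest WT densities were all in peaks of 1200 bp, the shortest listed length. The first, at chr13:109503200-109504399, held 137 normalized reads per kb in WT and 29.5 in K36M. The second, at chr1:96811800-96812999, held 123 and 18.6. The others, at chr5:65271800-65272999 and at chrX:162962400-162963599, had 96.3 and 21.2, and 92.7 and 18.2. In reads these are small counts, 103 to 152 in WT and 42 to 68 in K36M, and the 4 ratios of 0.151 to 0.220 have overlapping intervals.

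The change varied slightly with length. Divided by length into 3 equal sets, the 153 shortest narrow peaks, from 1200 to 3800 bp, had a median log2 ratio of −2.19, with quartiles of −2.44 and −1.99. The 153 longest ones, from 6400 to 9800 bp, had −2.08, with quartiles of −2.30 and −1.98, a difference of −0.12. The 152 in between had −2.07, so the medians did not move steadily with length and only the shortest set stood apart. That set also had the highest median WT density, 54.3 normalized reads per kb beside 41.4 in the longest. The library used for peak calling is not given, and an effect of the calling on the shortest set was not tested. At least 4-fold lower were 74.5% of the shortest, 59.9% of the middle and 69.9% of the longest set. From the shortest to the longest set the spread narrowed from an SD of 0.39 to 0.30, and counting error alone would give 0.24 and 0.15. With the pseudocount the difference between shortest and longest peaks turned to 0.35, since the short peaks hold the fewest reads.

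**Figure D3:**
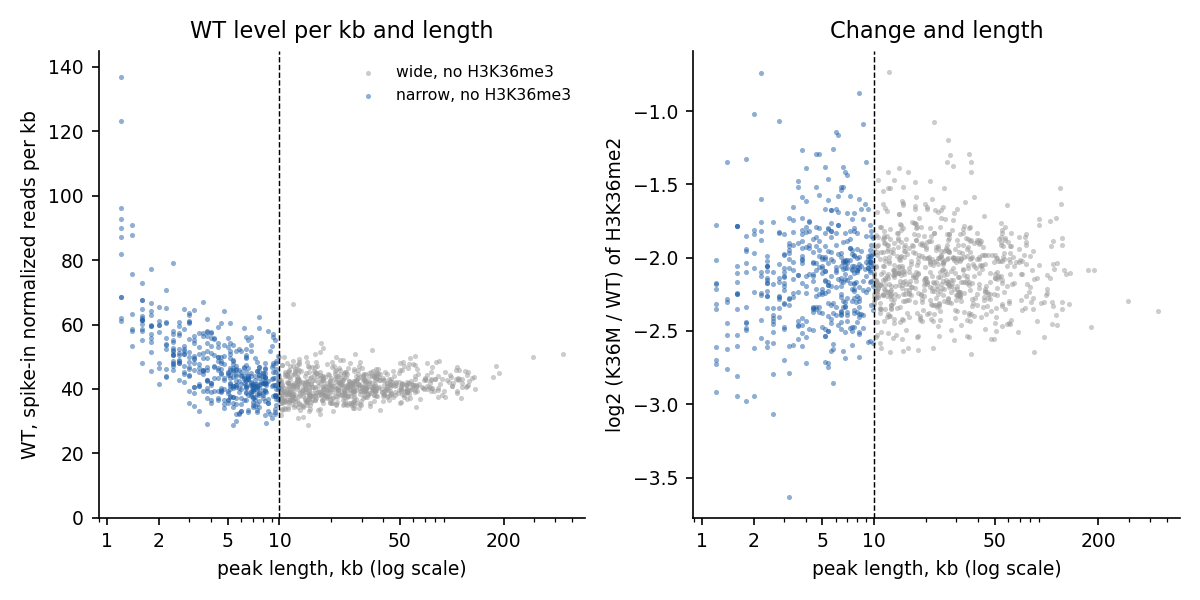
Peak length in kb (x axis, log scale) against the WT level in spike-in normalized reads per kb (left) and against the log2 ratio of K36M to WT (right), for narrow (blue) and wide (grey) H3K36me2 peaks without H3K36me3 outside chromosome 15, 1 point per peak, with a dashed line at 10 kb. The WT density declines with length among the narrow peaks and is nearly level beyond 10 kb, and the log2 ratios center near −2.11 on both sides of the line with a wider scatter among the short peaks.

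Most narrow peaks lay far from any wide H3K36me2 domain. The gap to the nearest H3K36me2 peak of 10000 bp or more had a median of 337.5 kb, with quartiles of 71.6 kb and 1.53 Mb. Only 38 of the 458 (8.30%) lay within 10 kb of a wide peak, 92 (20.1%) within 50 kb, and 143 (31.2%) more than 1000 kb away. Wide peaks without H3K36me3 lay closer to the next wide peak, with a median gap of 110.9 kb and 255 of the 708 within 50 kb. A wide peak within 50 kb on both sides was found for 17 narrow peaks, so few filled a gap between domains. For 276 (60.3%) no other H3K36me2 peak of any length lay within 100 kb, and for 84 none within 1000 kb. No 2 listed H3K36me2 peaks were closer than 5.20 kb, so a narrow peak always has a gap of at least that size around it in the list. With wide peaks defined as 20000 bp or more, the median gap was 878 kb.

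The change varied little with the distance to a wide peak over all 458. Median log2 ratios were −2.12 in the 38 narrow peaks within 10 kb and −2.14 in the 321 more than 100 kb away. Their quartiles were −2.31 and −2.03, and −2.35 and −1.92. The 99 peaks in between had −2.07. Median densities were 50.1 (near) and 45.2 (far) normalized reads per kb in WT, and 11.5 and 10.3 in K36M. Over all 458, the Spearman correlation of gap and log2 ratio was −0.040. The difference of the medians, near minus far, was 0.022. It was 0.12 among the 217 narrow peaks below 5000 bp, where the near peaks thus lost less, and −0.081 with the pseudocount.

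**Figure D4:**
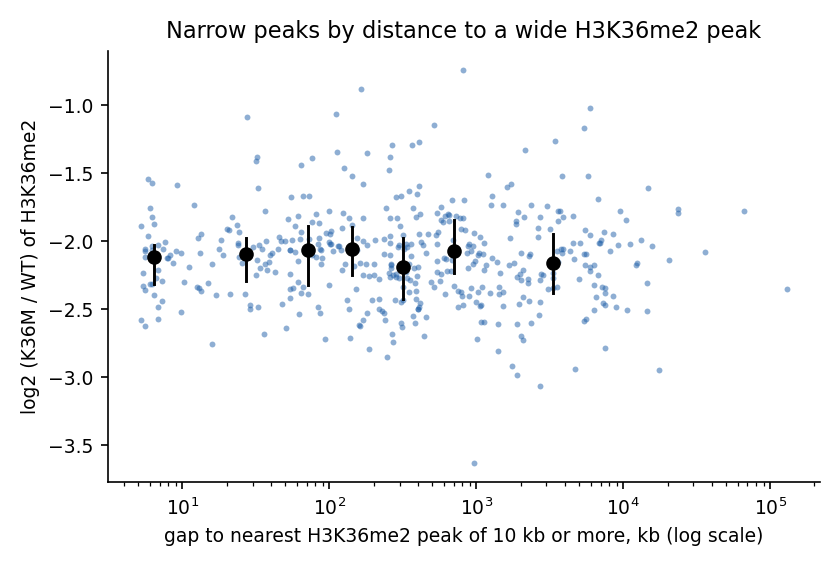
Gap in kb from each of the 458 narrow peaks to the nearest H3K36me2 peak of 10 kb or more (x axis, log scale) against its log2 ratio of K36M to WT (y axis), with 1 blue point per peak and, for 7 ranges of the gap, the median (black dot) and the quartiles (black line). The medians of the ranges stay between −2.19 and −2.05 from the closest to the farthest peaks.

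Peaks at the edges of domains had varied ratios. The peak at chr11:117493000-117496799 lay 5.20 kb from a 109.4 kb domain. Its values were 219 (WT) and 59.3 (K36M), 3.70-fold lower, and the domain was 3.71-fold lower. A peak at chr1:57129200-57131599, also 5.20 kb from a domain, had 124 and 20.8, 5.97-fold lower, beside 4.97-fold. Peaks at chr10:115724400-115733399 and at chr2:79577200-79583999 lay 5.40 kb from a domain. Their values were 480 and 102, and 280 and 55.6, which is 4.70-fold and 5.03-fold lower beside 4.39-fold and 4.75-fold in the domains.

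The most remote narrow peaks were also lower in K36M. The chromosome X peak, the only one on that chromosome, was 130.9 Mb from the nearest wide peak, with 111 and 21.8 normalized reads. The next 3 were on chromosome 7. The one at chr7:4683200-4684399, 66.5 Mb away, had 82.1 and 23.9, and that at chr7:35100400-35106999 had 285 and 67.6. The last, at chr7:141418200-141422199, had 157 and 45.2. These 4 peaks were 3.43-fold to 5.09-fold lower, beside 3.70-fold to 5.97-fold in the 4 peaks nearest to a domain, so the ranges overlap and 2 of the remote peaks lay below the other range.

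Narrow peaks had ratios close to those of their own wide neighbours. In the 92 pairs within 50 kb, the narrow peak's log2 ratio minus that of its nearest wide peak had a median of −0.06, with quartiles of −0.21 and 0.06, and the narrow peak was the lower one in 56. Across these pairs, which hold 87 different wide peaks and share both libraries, Pearson's r was 0.68 and Spearman's rho 0.63. For wide peaks at 50 to 200 kb, r was 0.62 and rho 0.53 (88 pairs), and at 200 to 1000 kb they were 0.36 and 0.38 (135 pairs). Beyond 1000 kb r was 0.044 and rho 0.20 (143 pairs). These far pairs hold only 89 different wide peaks, and in 17 of them the wide peak overlapped H3K36me3, beside 5 of the 92 within 50 kb. Wide peaks without H3K36me3 paired with their own nearest wide peak gave an r of 0.64, 0.55, 0.28 and 0.20 over the same distances, with a rho of 0.18 in the last, so the decline with distance was seen in both length classes. With each chromosome's median subtracted, a setting added after the data were seen, r within 50 kb was 0.59, and beyond 1000 kb rho was 0.083. With the pseudocount, the median difference turned to 0.29, as the narrow peaks hold fewer reads than their neighbours.

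**Figure D5:**
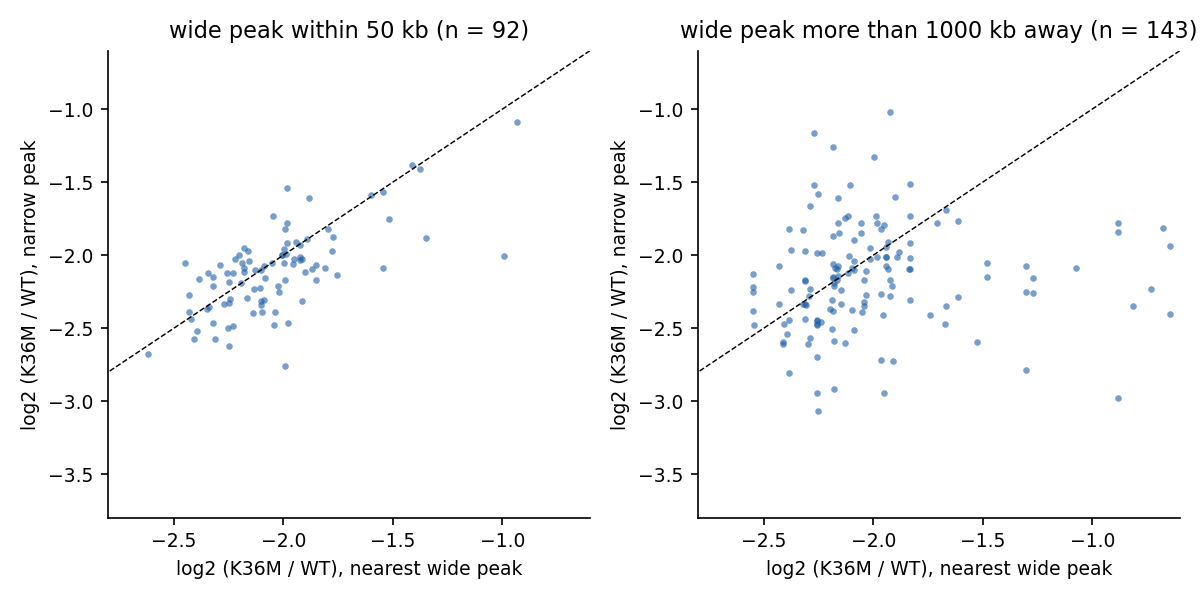
Log2 ratio of K36M to WT of each narrow peak (y axis) against that of its nearest wide H3K36me2 peak (x axis), for pairs within 50 kb (left, n = 92) and more than 1000 kb apart (right, n = 143), with 1 point per narrow peak and a dashed line of equality. The close pairs lie along the line (r = 0.68, rho = 0.63), and the distant pairs scatter more widely around it (r = 0.044, rho = 0.20).

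The distance to H3K36me3 moved with the change. Median log2 ratios were −2.06 in the 43 narrow peaks within 10 kb of H3K36me3 and −2.05 in the 116 at 10 to 50 kb. The 76 at 200 to 500 kb had −2.26, and the 54 beyond 500 kb had −2.28. In K36M the median density declined from 12.3 normalized reads per kb in the closest to 9.11 in the farthest. In WT it was 48.6 in the closest and 43.9 in the farthest, without a steady order in between (45.4, 46.1 and 43.4). The closest peaks were also shorter, with a median length of 3.6 kb beside 5.0 kb in the farthest. Density was higher in shorter peaks, so for density, length and distance were not separated among the narrow peaks. The log2 ratio went the other way with length, at −2.19 in the shortest set and −2.08 in the longest. Wide peaks without H3K36me3 had similar median lengths, 25.7 kb within 10 kb of H3K36me3 and 25.1 kb beyond 500 kb. Their median K36M densities were 10.1 and 7.84. Over the 458, Spearman's rho between gap and log2 ratio was −0.24. Wide peaks without H3K36me3 had the same order, from −2.05 within 10 kb to −2.30 beyond 500 kb, with a rho of −0.33. These distance ranges were set after the values were seen.

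Only 6 of the 458 narrow peaks (1.31%) shared a base with a listed H3K27me3 peak, the mark that Polycomb repressive complex 2 writes over silenced regions. Over all listed H3K36me2 peaks the share was higher, 40 of 1691 (2.37%), and among wide peaks without H3K36me3 it was 3 of 708 (0.424%). Among the 50 narrow peaks without H3K36me3 on chromosome 15 it was 3. The 6 were 2.24-fold to 3.61-fold lower, with a median of 2.71-fold, and the other 452 narrow peaks had a median of 4.35-fold. All 6 lay above the upper quartile of the narrow peaks, and none was at least 4-fold lower. The overlapping H3K27me3 peaks were higher in K36M in all 6 cases, with ratios of 1.17 to 1.80, beside 37.5% of all 999 listed H3K27me3 peaks. Overlaps of both marks were already known to have these features in these data, so the 6 add no independent support.

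Of these 6 peaks, 4 lay wholly inside an H3K27me3 peak. One of them, at chr17:8232000-8238799, had H3K36me2 values of 382 in WT and 144 in K36M, and the H3K27me3 peak around it had 1256 and 1773. A second one, at chr17:7284600-7291199, had 365 and 140, within an H3K27me3 peak of 1209 and 1711. The 2 places resemble each other in several listed values. Their H3K27me3 peaks were 126 and 124 kb long, and the gaps to a wide H3K36me2 peak were 31.6 and 32.0 kb and to an H3K36me3 peak 76.8 and 76.2 kb. These neighbours lay in mirrored order. The wide H3K36me2 peaks themselves differed in size, with 1196 normalized reads in WT over 28.8 kb at the first place and 718 over 15.8 kb at the second. These wide peaks were 2.59-fold and 2.66-fold lower in K36M, close to the 2.66-fold and 2.61-fold of the narrow peaks. Both wide peaks also shared bases with the H3K27me3 peak of their place. Whether the 2 places share sequence was not tested, so they may not count as separate cases. The chromosome 2 peak from 154087600 had H3K27me3 values of 580 and 726 around it. It was 2.24-fold lower in H3K36me2, and its nearest wide peak, 5396.8 kb away, was 4.82-fold lower. The peak at chr11:120877800-120883199 had 264 and 95.7, and its H3K27me3 peak 80.1 and 144. This narrow peak was 2.75-fold lower, and its nearest wide peak, 125.8 kb away and outside that H3K27me3 peak, was 2.81-fold lower. Whether the smaller loss goes with the overlap or with the surroundings was not tested.

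The number of narrow peaks per chromosome followed the wide ones only in part. Chromosomes 2 and 10 held the most, 53 and 51, beside 84 and 104 wide peaks without H3K36me3. On chromosome 7 there were 14 narrow and 6 wide peaks, on chromosome 18 there were 10 and 3, and on chromosome 3 there were 19 and 11. Chromosome 16 had 25 and 62. Of 19 chromosomes, 8 had more narrow than wide peaks. The median log2 ratio of the 17 chromosomes with at least 10 narrow peaks ran from −2.35 on chromosome 7 to −1.94 on chromosome 19. Across the 15 chromosomes with at least 10 peaks of each class, the medians of narrow and wide peaks had a Pearson's r of 0.65 and a Spearman's rho of 0.66, a description over chromosomes that share both libraries. The classes differed most among the larger counts on chromosome 11, where the median of 29 narrow peaks was 4.71-fold lower and that of 50 wide ones 4.01-fold.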

How the data were processed

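The authors deposited 1 table of peaks per mark, with a signal per genotype that the file headers name as normalized to the spike-in. The submitters' processing notes name Bowtie 1.0.0, mm9 and dm6. For the peak caller, its settings, the library used for calling and the scaling formula, nothing is given in the sources used here. The mouse build is taken as mm9. Starts are multiples of 200 bp, as in windows counted from 0, and positions are given as in the files. The gene and sequence tables at hand belong to another build, so no gene is named and no sequence is printed.

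Ratios are K36M over WT with no pseudocount, as no value was 0, and no peak was filtered out. All values of a column were whole multiples of 1 step, 1.08 in WT and 0.52 in K36M for H3K36me2, and were read as reads times that step. By this reading the 458 narrow peaks held 97354 reads in WT and 48452 in K36M. The intervals printed with ratios rest on these reads and do not cover error between libraries. Quartiles describe the spread over peaks, which are not replicates. Gaps count the bases between peak ends, and an overlap is 1 shared bp or more. Differences between classes of peaks are descriptions without a test, since each genotype has 1 library.

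The members and lists were chosen with earlier results of these data known. Named regions were those with the 6 lowest and 6 highest ratios among narrow peaks with a mean at or above their median, the 4 highest WT values, the 4 highest WT densities, the 4 smallest and 4 largest gaps to a wide peak, up to 4 overlaps with H3K27me3 and the 2 longest. Alternatives were a pseudocount, equal totals, other length, overlap and distance limits, autosomes only and chromosome 15 included. The calculations were tested on simulated counts. Input libraries were not analysed here. Python 3.11.15, numpy 2.4.6, pandas 2.3.3, scipy 1.17.1 and matplotlib 3.10.9 were used.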

Additional observations from a re-analysis of the deposited data

How the results depend on the processing

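Of 100 recalculated values, 74 lay inside the 95% interval of the reported value, or, for counts, differed from it by no more than 1.5 times. For medians, differences, densities and gaps this interval comes from the spread over peaks, and for r from the number of pairs. Peaks are not replicates, so the 74 only sorts the settings by how far a value moved and does not measure error between libraries. Some of the 74 could not move by construction. Equal totals leave every difference of log2 ratios unchanged, and autosomes only removes 1 narrow peak. The count of 74 is therefore no measure of robustness. With a pseudocount of 38.5 normalized reads the median log2 ratio was −1.49, the total ratio 0.349 and the number at least 4-fold lower 5. The narrow peaks' median was then 0.42 above that of wide peaks without H3K36me3, and the difference from narrow peaks with H3K36me3 was −0.48. The difference from the nearest wide peak reversed to 0.29 and that between the shortest and longest sets to 0.35, as a fixed addition weighs most on peaks with few reads. With both libraries scaled to the same total, which removes a shared difference by construction, the median was −0.11 and the total ratio 0.962. In that setting 2 and 0 peaks were at least 2-fold and 4-fold lower. With a length below 5000 bp, which leaves 217 peaks, 216 and 148 passed these thresholds, 21 lay within 10 kb of a wide peak, and the total ratio was 0.235. Densities were then 1.26 (WT) and 1.25 (K36M) times those of wide peaks, and the shortest and longest sets differed by −0.21. The near and far medians differed by 0.12 below 5000 bp and by −0.081 with the pseudocount, against 0.022. With wide peaks of 20000 bp or more, the median gap was 878 kb and 20 peaks lay within 10 kb. Steps at their rounding limits gave total ratios of 0.236 and 0.243, and this setting and the next were chosen after seeing the data. The 229 narrow peaks with the higher mean had a median of −2.08 and a total ratio of 0.244, with 228 and 154 past the thresholds. The planned limit on mean signal, the median of all H3K36me2 peaks, left no narrow peak, so it gave no value. No paired analysis was possible because each group has 1 library, which also leaves no replicate to omit. The smallest narrow peak in K36M held 19 reads, so single short peaks are imprecise.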
